A study of Mus musculus with 24 samples.

Results

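The genes described here encode subunits of the respiratory chain complexes I, III and IV and of the ATP synthase. They were the protein-coding mouse genes whose symbol starts with Nduf followed by a, b, c, s or v and a number, or with Uqcr, Cox4 to Cox8 or Atp5, together with Cyc1 and the mt- genes for Nd, Co, Atp and Cytb subunits. The rule found 94 of 35968 genes, of which 81 lie in nuclear chromosomes and 13 in mitochondrial DNA (mtDNA). RNA came from C2C12, a mouse myoblast line kept undifferentiated and subconfluent in DMEM with 10% FBS, 48 h after transfection of siRNA. The 4 groups held 3 libraries each: siFem1b/Keap1 (both targeting siRNAs together), siFem1b, siKeap1, and siCont, a non-targeting siRNA. A single siRNA was used per target gene, so its effects on other transcripts are part of each group. The series concerns how cells detect and relieve reductive stress, an excess of reducing power, and the design sets both depletions and their combination against the control.

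Complex I takes electrons from NADH and passes them to coenzyme Q, complex III hands them on to cytochrome c, and complex IV passes them to oxygen. These 3 complexes pump protons across the inner mitochondrial membrane, and the ATP synthase uses the returning protons to make ATP. Each of the 4 complexes is built from proteins of both genomes: mtDNA encodes core membrane subunits and is transcribed as long RNAs that are cut into single messages, while the nuclear genes are scattered over the chromosomes. FEM1B and KEAP1 are substrate receptors of cullin ubiquitin ligases. KEAP1 marks the transcription factor NRF2 for degradation, and FEM1B is known for acting on FNIP1, a protein linked to mitochondrial activity.

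Libraries held between 31.9 M and 43.0 M estimated counts. Keap1 RNA stood at 9.57, 9.20 and 9.38 CPM (counts scaled to a fixed library size) in siFem1b/Keap1 libraries and at 10.2, 11.1 and 8.59 CPM in siKeap1 libraries, against 60.6, 63.3 and 61.4 CPM in siCont libraries. Fem1b RNA stood at 12.4, 14.2 and 11.6 CPM in siFem1b/Keap1 libraries and at 12.8, 13.6 and 13.4 CPM in siFem1b libraries, against 95.2, 94.1 and 101 CPM in siCont libraries. Each targeted RNA was therefore low in every library labelled for its siRNA. Replicates 1 and 2 of siFem1b/Keap1, and replicates 1 and 2 of siKeap1, differed by no more than repeat runs of a single library did. Chi-square per degree of freedom, a spread relative to counting error, was 2.34 to 2.87 between the 2 runs of a library. In first runs alone it was 1.6 and 1.56 for these pairs, and 2.65 to 7.43 for other pairs within a group. With runs summed it was 2.43 and 2.47, against 5.62 to 17, but summed runs are deeper than the single runs behind the repeat-run range. In first runs siKeap1 replicates 1 and 3, at 2.65, also lay within that range, and they were not counted as 1 library. The pairs of replicates 1 and 2 were kept as separate libraries, since their values are not identical. Results that change when each of these pairs is counted as 1 library are given with that value. Whether replicates came from separate cultures is not in the labels, so p-values reflect only the spread among these libraries, which may be technical. Summed markers of differentiating muscle lay between 170 and 181 CPM in siFem1b/Keap1, between 246 and 263 CPM in siFem1b and between 16.6 and 17.8 CPM in siKeap1 libraries, against 16.2 to 19.9 CPM in siCont libraries. Summed myoblast markers lay between 6860 and 7057, between 7890 and 8183 and between 6634 and 6721 CPM in these 3 groups, against 8772 to 8948 CPM in siCont. Summed epithelial markers lay between 38.1 and 40.4 CPM in siFem1b/Keap1, between 14.8 and 17 CPM in siFem1b and between 61.0 and 65.8 CPM in siKeap1 libraries, against 9.32 to 11.1 CPM in siCont libraries. Summed markers of leukocytes, endothelium and fat cells stayed under 7 CPM in every library. Those of leukocytes lay between 5.74 and 6.65 CPM in siFem1b/Keap1 and between 2.28 and 2.73 CPM in siFem1b libraries. They lay between 4.41 and 5.03 CPM in siKeap1 libraries, against 1.66 to 2.27 CPM in siCont libraries. The part of these cell-state markers in the results was not tested. In bulk RNA, fewer cells of a type and less RNA per cell cannot be told apart.

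The siRNAs are printed because a guide can lower any transcript that pairs with its seed. The sense strands are given 5′ to 3′ from the series' design text. In those of siKeap1 and siFem1b, capitals mark the 7 bases that match a target of guide bases 2 to 8. The siCont match was not searched, and its strand carries no capitals.
siKeap1: gcgccaauguuGACACGGa
siFem1b: gaagaucagugCAGAAUUa
siCont: ugguuuacauguuuucuga
Of 79 members with a 3′ UTR of at least 8 bases, 0 held the siKeap1 match GACACGG there, which 2.1% of 20122 genes hold. The siFem1b match CAGAATT occurred in 1 of the 79, Ndufs4, and in 11.56% of all those genes. Members and all genes were not matched for 3′ UTR length, on which such shares depend. Ndufs4 lies on chromosome 13, minus strand (GRCm38), and its match, in capitals, reads as follows.
Ndufs4 site: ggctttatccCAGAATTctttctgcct
A match is a description of the letters and not a site of action. Ndufs4 was at 48.5, 48.6 and 48.1 CPM in siFem1b libraries, against 49.9, 57.3 and 49.6 CPM in siCont libraries, and its difference there did not pass the test (edgeR's quasi-likelihood test, Benjamini-Hochberg-adjusted p = 0.0834).

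Promoters were looked at because the nuclear genes of this set are known for sharing binding motifs of NRF-1 (the product of Nrf1), of ETS factors such as GABP, and of YY1. RefSeq gives the 250 bases before to 50 bases after the start for 63 of the 81 nuclear members (GRCm38.p6), and both strands were searched. The NRF-1 letters GCGCATGCG occurred in 8 of the 63 (12.7%), against 1.81% of 27025 promoters of all genes: Atp5g2, Atp5k, Atp5l, Cox6a1, Ndufa11, Ndufa8, Uqcr11 and Uqcrc1. The ETS letters CCGGAAG occurred in 13 (20.6%, against 9.12%), and the YY1 letters AAGATGGC in 8 (12.7%, against 2.88%). The antioxidant response element, the NRF2 motif, was searched as TGACNNNGC and occurred in 9 of the 63 (14.3%, against 12.47%). These matches were not tested for binding. Windows of up to 30 bases around 5 of the matches are shown, chosen as examples of each motif among genes described below, on the gene's strand, with the motif or its reverse complement in capitals.
Uqcrc1 NRF-1, chr9:108936668-108936696, plus strand: actccgctctGCGCATGCGcagcgcggct
Atp5g2 NRF-1, chr15:102671071-102671099, minus strand: ggctccggccGCGCATGCGcagagccttc
Ndufs8 ETS, chr19:3912743-3912769, minus strand: taggctccgcCTTCCGGttgaaccgca
Ndufs7 YY1, chr10:80249463-80249490, plus strand: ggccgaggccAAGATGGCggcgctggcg
Ndufv2 antioxidant response element, chr17:66101609-66101637, minus strand: ctcgcgcgccGCTGCGTCAggaacggcgt

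Per length, as the authors' deposited TPM (a length-scaled share of each library), the 13 mtDNA messages averaged between 877 TPM (mt-Atp8) and 8332 TPM (mt-Co1) over all libraries. These values leave out counts assigned to near-identical nuclear pseudogenes. For mt-Co2 those were 80.2% of the counts of the gene and its copies, so its level may be too low. The top of this range is therefore uncertain. Atp5b, the catalytic β subunit of the ATP synthase, was the most abundant nuclear member at 3272 TPM, and Atp5g3, 1 of 3 genes for subunit c, followed at 861 TPM. The other nuclear members with more than a trace lay between 65.6 TPM (Ndufs3) and 789 TPM (Cox4i1). At the low end, Cox7a1 averaged 10.5 TPM, Atp5s 6.77 TPM and Cox8b 6.43 TPM. A filter on low counts kept 88 of the 94 members: Cox4i2, Cox6a2, Cox6b2, Cox7b2, Cox8c and a second Atp5o gene model with 1 count in all were not tested.

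The summed nuclear members differed little between the 4 groups, while the mean of the summed mtDNA messages was highest in siFem1b/Keap1. The summed mtDNA messages came to 24304, 25383 and 20874 CPM in siFem1b/Keap1, 19606, 23235 and 19601 CPM in siFem1b and 18752, 18593 and 19690 CPM in siKeap1 libraries, against 18349, 18259 and 20283 CPM in siCont libraries. Every siFem1b/Keap1 library lay above every siCont library, whereas siFem1b and siKeap1 overlapped siCont. Counts assigned to nuclear pseudogene copies are not in these sums. With the copies, partial ones included, siFem1b/Keap1 libraries held 24420 to 29380 CPM, against 21160 to 23630 CPM in siCont libraries. The siFem1b libraries, at 23250 to 27660 CPM, and the siKeap1 libraries, at 21390 to 22860 CPM, again overlapped siCont. The summed nuclear members came to 8340, 8147 and 8652 CPM in siFem1b/Keap1, 9024, 8306 and 8646 CPM in siFem1b and 8248, 8035 and 8445 CPM in siKeap1 libraries, against 8506, 9714 and 8621 CPM in siCont libraries. Here siCont replicate 2 was the highest library of all 12, and the siKeap1 libraries lay below all 3 siCont libraries. The ratio of mtDNA to nuclear sums was 2.91, 3.12 and 2.41 in siFem1b/Keap1, 2.17, 2.80 and 2.27 in siFem1b and 2.27, 2.31 and 2.33 in siKeap1 libraries, against 2.16, 1.88 and 2.35 in siCont libraries. The mean log2 ratio was 0.40 higher in siFem1b/Keap1 than in siCont libraries, 0.18 higher in siFem1b and 0.12 higher in siKeap1. These sums over chosen genes were not tested. Single libraries weigh on them: without siFem1b replicate 2 the siFem1b difference was 0.07, and without siCont replicate 2 the siKeap1 difference was 0.03. From the deposited TPM the ratio was 2.14, 2.3 and 1.72 in siFem1b/Keap1 libraries. It was 1.45, 2.06 and 1.59 in siFem1b and 1.73, 1.78 and 1.74 in siKeap1, against 1.56, 1.38 and 1.78 in siCont libraries. In TPM each depleted group thus overlapped siCont. Libraries were selected for poly(A) per the labels, so the level of an mtDNA message also depends on its tail, which was not measured.

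**Figure D1:**
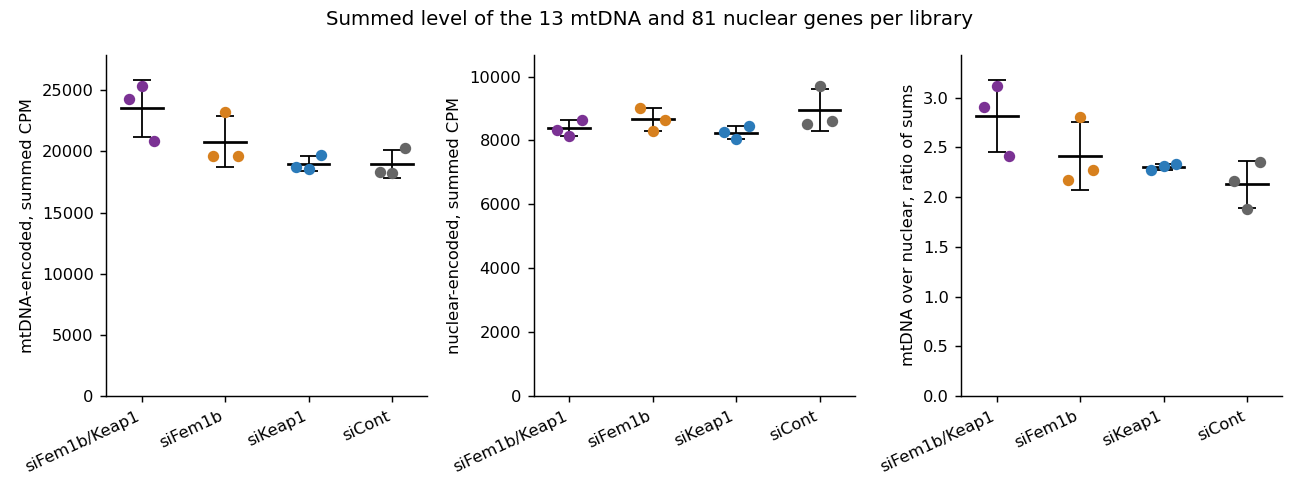
Summed CPM of the 13 mtDNA genes (left), of the 81 nuclear genes (middle) and their ratio (right) in each library; points are libraries, bars the mean and SD of 3 libraries. The 3 siFem1b/Keap1 libraries, at 20874 to 25383 CPM, lie above the siCont libraries for mtDNA messages, and the ratio is between 2.41 and 3.12 in siFem1b/Keap1, against 1.88 to 2.35 in siCont.

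Counted over single genes, siFem1b/Keap1 changed 47 of the 88 tested members relative to siCont (53.4%), with 29 higher and 18 lower, while 67.5% of all 14577 genes tested passed (edgeR's quasi-likelihood test on all 12 libraries, Benjamini-Hochberg-adjusted p under 0.05). siFem1b changed 34 members (38.6%, 21 higher and 13 lower), where 62.1% of all genes passed. siKeap1 changed 18 members (20.5%, 3 higher and 15 lower), where 42.2% of all genes passed. In each of these comparisons the members' share lay below that of all genes. The members' median log2 fold change was 0.09, 0.05 and -0.05 in siFem1b/Keap1, siFem1b and siKeap1, beside medians of 0.01, -0.01 and -0.02 over all genes tested. All 3 comparisons share the siCont libraries. Most changes were small: 7, 3 and 1 members passed with at least a 1.5-fold change, where 29.4%, 21.1% and 10.1% of all genes did. The 7 in siFem1b/Keap1 were mt-Nd3, Ndufv3, Ndufa13, Atp5s, Cox7a1 and Cox8b, which were higher, and Ndufs8, which fell. Cox8b reached the filter's cutoff of 0.271 CPM only in siFem1b/Keap1 and siFem1b libraries, so it had to differ and its place in each count of higher members is no support for that count. The other 87 tested members reached it in every library. All 3 libraries of siFem1b/Keap1 lay beyond all 3 of siCont for 42 members, where 70.3% of genes were so placed. The same held for 23 members in siFem1b and 24 in siKeap1, beside 63.6% and 51.2% of genes. With libraries scaled by their totals alone, in place of the trimmed mean of M-values, the median of all genes moved up by 0.12 on the log2 scale in siFem1b/Keap1. The counts higher and lower were then 47 and 12 in siFem1b/Keap1, 40 and 8 in siFem1b and 4 and 10 in siKeap1.

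**Figure D2:**
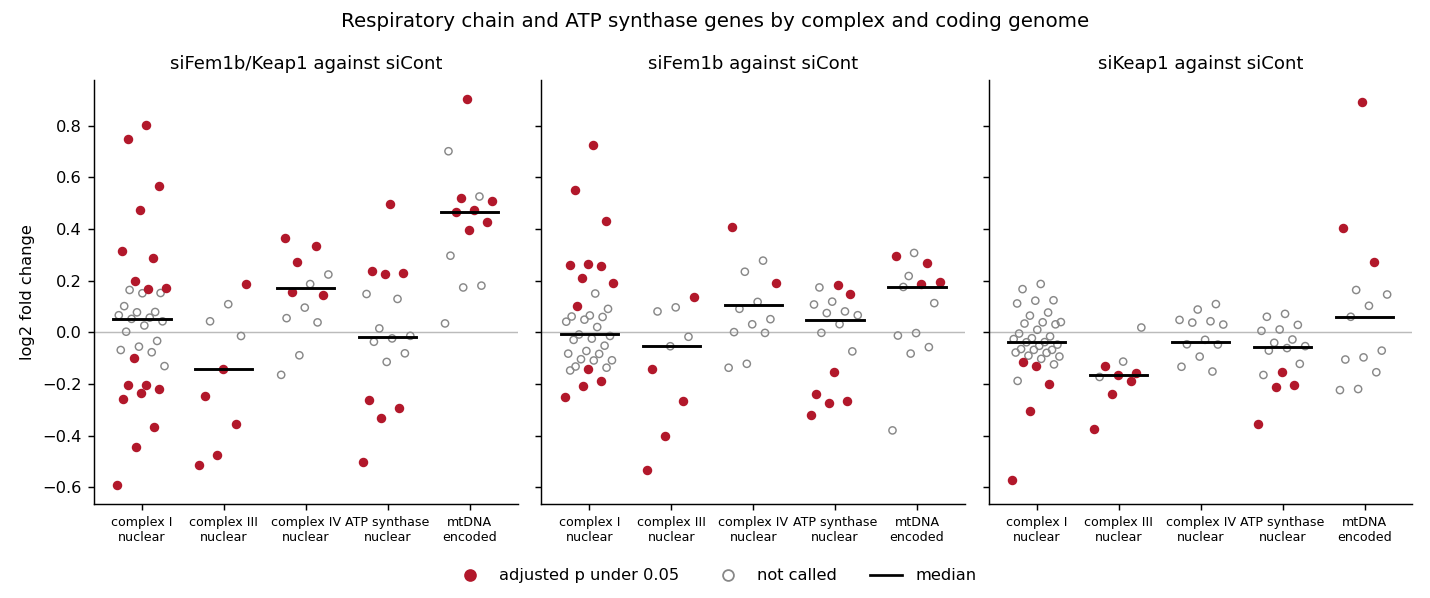
Log2 fold change against siCont of each tested member by complex and coding genome; filled points passed an adjusted p of 0.05, open points did not, and lines are medians over all tested members of the column. Cox8b and Cox7a1 enter the complex IV median but are not drawn, and Atp5s is left out; the mtDNA genes centre on 0.46 in siFem1b/Keap1, the nuclear complex III genes on -0.14 in siFem1b/Keap1 and -0.17 in siKeap1.

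The mtDNA genes are described first. Of the 13, 7 rose and none fell in siFem1b/Keap1 (median log2 change 0.46), and 4 rose and none fell in siFem1b (median 0.18). In siKeap1, 3 rose and none fell, with a median of 0.06. Of all genes tested, 33.8%, 30% and 18.4% were higher in these comparisons. With library totals alone the counts higher were 9, 6 and 3, again with none lower. Lower calls among them appeared in siKeap1 with limma-voom, the DESeq2 Wald test, partial copies summed or the compared groups alone (1 each) and without a filter on low counts (3, and 1 in siFem1b).

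mt-Nd3 encodes a small membrane subunit of complex I (mtDNA bases 9459 to 9806, plus strand, GRCm38) and had the largest change among mtDNA genes that passed the test. It was at 252, 269 and 282 CPM in siFem1b/Keap1, 153, 105 and 147 CPM in siFem1b and 257, 241 and 300 CPM in siKeap1 libraries, against 138, 155 and 136 CPM in siCont libraries. Every library that received the Keap1 siRNA thus lay above every library that did not. The rise was 1.87-fold in siFem1b/Keap1 (log2 0.90 ± 0.14 SE, edgeR adjusted p = 0.000289) and 1.86-fold in siKeap1 (0.89 ± 0.14, adjusted p = 0.000679), while in siFem1b the value was -0.08 (adjusted p = 0.643). A nuclear pseudogene, Gm28438, is a near-identical copy and held 36.0% of the counts of the pair, so the split between them is an estimate of the counting tool. Summed with it, mt-Nd3 was at 415, 413 and 343 CPM in siFem1b/Keap1, 238, 282 and 223 CPM in siFem1b and 368, 373 and 402 CPM in siKeap1 libraries, against 232, 249 and 261 CPM in siCont libraries. The log2 fold changes of the sum were smaller, 0.66 (adjusted p = 7.2e-05) in siFem1b/Keap1 and 0.62 (adjusted p = 0.000265) in siKeap1, and the 2 sets of libraries still did not overlap.

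mt-Nd2, another complex I subunit, was also higher in all 6 libraries with the Keap1 siRNA than in the 6 without it. It was at 1220, 1290 and 1030 CPM in siFem1b/Keap1, 812, 904 and 749 CPM in siFem1b and 1050, 1080 and 1160 CPM in siKeap1 libraries, against 790, 776 and 919 CPM in siCont libraries. It rose by 0.51 ± 0.098 (log2, SE) in siFem1b/Keap1 (edgeR adjusted p = 0.000727) and by 0.41 ± 0.098 in siKeap1 (adjusted p = 0.00623), with -0.01 in siFem1b. mt-Atp6, the membrane subunit of the ATP synthase through which protons pass, rose in siFem1b/Keap1 (log2 0.43, adjusted p = 0.00115) and in siKeap1 (0.27, adjusted p = 0.031). Its libraries were at 2670, 2730 and 2390 CPM in siFem1b/Keap1, 2290, 2460 and 1980 CPM in siFem1b and 2190, 2190 and 2590 CPM in siKeap1, against 1830, 1870 and 2080 CPM in siCont. The siKeap1 call rested on single libraries: without siKeap1 replicate 3, siCont replicate 1 or siCont replicate 2 it was lost, with adjusted p up to 0.125. In siFem1b mt-Atp6 had 0.22 (adjusted p = 0.0542).

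The mtDNA genes that rose in siFem1b as well as in siFem1b/Keap1 were mt-Nd4, mt-Nd5 and mt-Nd6 of complex I and mt-Cytb, cytochrome b of complex III. mt-Nd4 was at 1920, 2020 and 1680 CPM in siFem1b/Keap1, 1670, 1740 and 1590 CPM in siFem1b and 1410, 1320 and 1520 CPM in siKeap1 libraries, against 1390, 1270 and 1410 CPM in siCont libraries. All 6 libraries with the Fem1b siRNA were above the 6 without it, with log2 changes of 0.46 in siFem1b/Keap1 (edgeR adjusted p = 2.42e-05), 0.30 in siFem1b (adjusted p = 0.00156) and 0.06 in siKeap1 (adjusted p = 0.522). mt-Nd6 is the only one of the 13 read from the other mtDNA strand. It was at 389, 413 and 334 CPM in siFem1b/Keap1, 311, 298 and 347 CPM in siFem1b and 258, 237 and 260 CPM in siKeap1 libraries, against 269, 263 and 260 CPM in siCont libraries. It rose by 0.52 in siFem1b/Keap1 (adjusted p = 1.56e-05) and by 0.27 in siFem1b (adjusted p = 0.00462), and again every library with the Fem1b siRNA lay above every one without. Whether counting used strand is not given in the sources used here. Reads of RNA from the opposite strand may therefore be part of the mt-Nd6 counts, which was not tested. mt-Nd5 had log2 changes of 0.40 (adjusted p = 0.000268), 0.20 (adjusted p = 0.0325) and -0.10 (adjusted p = 0.328) in siFem1b/Keap1, siFem1b and siKeap1. mt-Cytb had 0.47 (adjusted p = 8.19e-05), 0.19 (adjusted p = 0.0466) and 0.15 (adjusted p = 0.145), and in siFem1b its libraries overlapped siCont, at 2500, 3020 and 2480 CPM against 2230, 2320 and 2490 CPM. The siFem1b calls of mt-Nd5 and mt-Cytb were lost without siFem1b replicate 2, the siFem1b library with the highest mtDNA sum, and without several other single libraries. With replicates 1 and 2 of siFem1b/Keap1 and of siKeap1 each counted as 1 library, mt-Cytb in siFem1b had an adjusted p of 0.0596.

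The remaining mtDNA genes did not pass in any comparison with siCont. mt-Co1, the catalytic subunit of complex IV, had log2 values of 0.18 (edgeR adjusted p = 0.0819) in siFem1b/Keap1, 0.18 (adjusted p = 0.0961) in siFem1b and -0.22 (adjusted p = 0.0598) in siKeap1. It was at 8240, 8650 and 7070 CPM in siFem1b/Keap1, 7410, 9030 and 7430 CPM in siFem1b and 5950, 5990 and 6210 CPM in siKeap1 libraries, against 6910, 6640 and 7590 CPM in siCont libraries. The siKeap1 libraries lay below all others, and summed with its partial copies mt-Co1 passed in siKeap1 at -0.23 (adjusted p = 0.0448). mt-Nd1 had 0.17 in siFem1b/Keap1 (adjusted p = 0.0507), and passed there when replicate 3 of any 1 group was left out. mt-Co2 and mt-Co3, the other complex IV subunits, are near-identical to nuclear pseudogenes, which held 80.2% of the counts of the mt-Co2 family and 37.1% of those of the mt-Co3 family. Summed with those copies, mt-Co3 rose in siFem1b/Keap1 (0.39, adjusted p = 0.0216) and mt-Co2 in siFem1b (0.21, adjusted p = 0.0426). mt-Nd4l and mt-Atp8 are short and overlap mt-Nd4 and mt-Atp6, and their values spread widely within groups, from 146 to 235 CPM for mt-Nd4l and from 18.1 to 33.3 CPM for mt-Atp8 in siFem1b/Keap1, against 128 to 160 and 10.2 to 22.7 CPM in siCont.

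**Figure D3:**
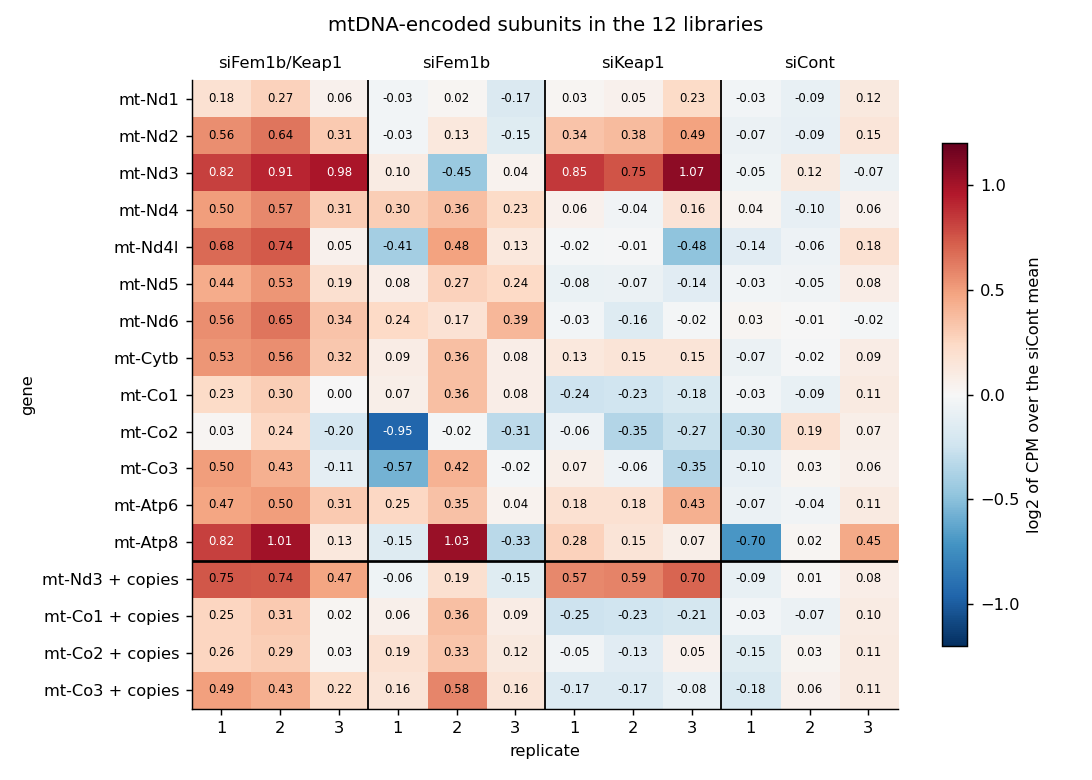
Log2 of CPM over the siCont mean for the 13 mtDNA genes in each of the 12 libraries, with 4 genes repeated below the line after adding their nuclear pseudogene copies (partial ones included). mt-Nd3 is high in the 6 libraries that received the Keap1 siRNA, mt-Nd4 and mt-Nd6 in the 6 that received the Fem1b siRNA.

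Of the 75 nuclear members tested, 22 rose and 18 fell in siFem1b/Keap1 relative to siCont, 17 rose and 13 fell in siFem1b, and none rose and 15 fell in siKeap1. Of all genes tested, 33.8% were higher and 33.7% lower in siFem1b/Keap1, 30% and 32.1% in siFem1b, and 18.4% and 23.8% in siKeap1. The share of nuclear members called, 53.3% in siFem1b/Keap1 and 40% in siFem1b, lay below the 67.5% and 62.1% of all genes. Their median log2 fold changes were 0.05, 0.03 and -0.05. Counted in complex IV is Ndufa4, and Atp5s is in no complex. In nuclear complex III, with 9 genes tested, 1 rose and 5 fell in siFem1b/Keap1, 1 rose and 4 fell in siFem1b, and 6 fell in siKeap1, with medians of -0.14, -0.05 and -0.17. In nuclear complex IV, with 14 tested of 19, 7 were higher in siFem1b/Keap1 and 4 in siFem1b, of which 1 each was Cox8b, none fell, and no gene passed in siKeap1, with medians of 0.17, 0.10 and -0.04. Without an adjustment, 1 complex IV gene had p under 0.05 in siKeap1. In nuclear complex I, with 35 tested, 9 rose and 9 fell in siFem1b/Keap1, 9 rose and 4 fell in siFem1b, and 5 fell in siKeap1. In the ATP synthase, with 16 tested of 17, 4 rose and 4 fell in siFem1b/Keap1, 2 rose and 5 fell in siFem1b, and 4 fell in siKeap1.

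Several members that carry the chemistry of the complexes fell with the Keap1 siRNA. Ndufs8 encodes a complex I subunit that holds iron-sulfur clusters (chromosome 19, bases 3908863 to 3912774, minus strand, GRCm38), and its promoter window is printed above. It was at 48.3, 44.4 and 46.8 CPM in siFem1b/Keap1, 68.5, 61.5 and 65.2 CPM in siFem1b and 46.8, 43.1 and 51.4 CPM in siKeap1 libraries, against 68.0, 73.7 and 68.3 CPM in siCont libraries. The 6 libraries with the Keap1 siRNA lay below the 6 without it. Ndufs8 was at 0.665 times siCont in siFem1b/Keap1 (log2 -0.59 ± 0.060 SE, edgeR adjusted p = 6.11e-08) and at 0.673 times siCont in siKeap1 (-0.57, adjusted p = 3.39e-07), with -0.10 in siFem1b (adjusted p = 0.135). Ndufb9, an accessory subunit of complex I, was also lower in all 6 libraries with the Keap1 siRNA than in the 6 without it: 83.8, 82.6 and 89.8 CPM in siFem1b/Keap1, 125, 102 and 112 CPM in siFem1b and 89.6, 85.3 and 92.1 CPM in siKeap1 libraries, against 106, 122 and 102 CPM in siCont libraries. It fell by 0.37 on the log2 scale in siFem1b/Keap1 (adjusted p = 0.000558) and by 0.31 in siKeap1 (adjusted p = 0.0043). Ndufv1, the subunit that binds NADH and FMN, fell by 0.20 in each of them (adjusted p = 0.000213 and 0.000549), with -0.07 in siFem1b.

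Uqcrfs1 encodes the Rieske iron-sulfur protein of complex III (chromosome 13, bases 30540308 to 30545362, minus strand). It was at 90.8, 89.8 and 89.8 CPM in siFem1b/Keap1, 107, 98.9 and 103 CPM in siFem1b and 81.5, 80.8 and 84.9 CPM in siKeap1 libraries, against 105, 113 and 103 CPM in siCont libraries. siKeap1 libraries were the lowest, siFem1b/Keap1 libraries came next, and siFem1b and siCont libraries overlapped. The fall was 0.37 on the log2 scale in siKeap1 (edgeR adjusted p = 9.27e-07) and 0.24 in siFem1b/Keap1 (adjusted p = 4.95e-05), and the 0.13 difference of siFem1b/Keap1 over siKeap1 also passed (adjusted p = 0.0133). Atp5a1 and Atp5b, the α and β subunits of the catalytic head of the ATP synthase, fell in all 3 comparisons. Atp5a1 was at 280, 281 and 285 CPM in siFem1b/Keap1, 335, 342 and 339 CPM in siFem1b and 314, 310 and 312 CPM in siKeap1 libraries, against 381, 418 and 399 CPM in siCont libraries. The 4 groups did not overlap, and its log2 changes were -0.50 ± 0.037 (adjusted p = 5.1e-10), -0.24 (adjusted p = 1.52e-05) and -0.36 (adjusted p = 2.39e-07) in siFem1b/Keap1, siFem1b and siKeap1. Atp5b had -0.33 (adjusted p = 3.34e-07), -0.15 (adjusted p = 0.00186) and -0.21 (adjusted p = 0.000199), from 1640, 1630 and 1690 CPM in siFem1b/Keap1, 1910, 1830 and 1870 CPM in siFem1b and 1780, 1780 and 1840 CPM in siKeap1, against 2020, 2180 and 2050 CPM in siCont. Exons of Atp5a1 overlap the oppositely read gene Haus1 over 129 of 3135 bases, and whether counting used strand is not given in the sources used here.

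Other members fell mainly with the Fem1b siRNA. Uqcrb, a complex III subunit near the coenzyme Q site (chromosome 13), was at 58.1, 54.7 and 54.8 CPM in siFem1b/Keap1, 53.8, 54.2 and 52.9 CPM in siFem1b and 73.0, 71.4 and 64.8 CPM in siKeap1 libraries, against 71.5, 84.6 and 77.1 CPM in siCont libraries. Libraries with the Fem1b siRNA lay below all others. Its log2 changes were -0.47 (edgeR adjusted p = 4.52e-07), -0.53 (adjusted p = 1.35e-07) and -0.16 (adjusted p = 0.0312) in siFem1b/Keap1, siFem1b and siKeap1. Cyc1, cytochrome c1, fell in steps: 174, 174 and 181 CPM in siFem1b/Keap1, 188, 189 and 193 CPM in siFem1b and 218, 209 and 212 CPM in siKeap1 libraries, against 237, 270 and 247 CPM in siCont libraries. No 2 groups overlapped, with log2 changes of -0.51 (adjusted p = 3.61e-09), -0.40 (adjusted p = 1.48e-07) and -0.24 (adjusted p = 0.000164). Uqcrc1, a core subunit of complex III whose promoter holds the NRF-1 letters, fell by 0.35, 0.27 and 0.17 in the same order of groups (adjusted p = 6.95e-07, 2.59e-05 and 0.00442). Ndufs7, an iron-sulfur subunit of complex I, fell by 0.44 in siFem1b/Keap1 (adjusted p = 0.000176) and by 0.25 in siFem1b (adjusted p = 0.0131), with -0.09 in siKeap1 (adjusted p = 0.381). Its siFem1b call was lost without siFem1b replicate 2 or siCont replicate 2. Atp5c1, the γ subunit that turns inside the catalytic head, fell by 0.26 and 0.27 in siFem1b/Keap1 and siFem1b (adjusted p = 1.91e-05 and 1.57e-05), with -0.05 in siKeap1. Atp5g3 fell in all 3, by 0.29, 0.27 and 0.21. Atp5g2, a second gene for subunit c, fell in siFem1b (-0.32, adjusted p = 0.00796), but 69.4% of the counts of its family lay in pseudogenes, and the sum with them had -0.09 (adjusted p = 0.205).

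Rises among nuclear members came with the Fem1b siRNA, and no nuclear member rose in siKeap1 with the scaling and filter used here. With library totals alone 1 did. Without a filter on low counts 5 members were higher in siKeap1, of which 4 were mtDNA genes. Ndufv3, a small subunit of the NADH-binding arm of complex I (chromosome 17), was at 51.2, 48.8 and 54.2 CPM in siFem1b/Keap1, 53.4, 41.8 and 50.9 CPM in siFem1b and 28, 27.3 and 31.7 CPM in siKeap1 libraries, against 28.2, 34.4 and 26.2 CPM in siCont libraries. The 6 libraries with the Fem1b siRNA were above the 6 without it, at log2 0.80 ± 0.11 SE (edgeR adjusted p = 3.35e-05), 0.73 ± 0.11 (adjusted p = 9.58e-05) and -0.02 in siFem1b/Keap1, siFem1b and siKeap1. Ndufa13, also known as GRIM-19, an accessory subunit of complex I (chromosome 8), was at 71.8, 71.2 and 83.9 CPM in siFem1b/Keap1, 73.8, 58.6 and 65.4 CPM in siFem1b and 49.2, 44.4 and 53.4 CPM in siKeap1 libraries, against 42.5, 53.5 and 39.5 CPM in siCont libraries. It showed the same separation, with 0.75 (adjusted p = 0.000415), 0.55 (adjusted p = 0.00361) and 0.12. Ndufa1, another small membrane subunit of complex I, rose by 0.57 and 0.43 in siFem1b/Keap1 and siFem1b (adjusted p = 8.49e-06 and 0.000215). Atp5e, the ε subunit of the ATP synthase, rose by 0.50 and 0.18 (adjusted p = 1.76e-05 and 0.0424). Ndufa4, which sits in complex IV despite its name, rose by 0.37 and 0.19 (adjusted p = 4.14e-05 and 0.011). Cox8a, a small complex IV subunit, rose by 0.33 and 0.41 (adjusted p = 0.0316 and 0.0137), and its siFem1b call was lost without siCont replicate 1 or 3. Ndufv2, an iron-sulfur subunit of complex I, rose by 0.17 and 0.10 (adjusted p = 0.00209 and 0.0489), and in siFem1b the call was lost without 1 of several single libraries, with an adjusted p of 0.078 when close replicates were counted as 1 library. Atp5s, whose product is not a subunit of the assembled enzyme although its symbol meets the rule, rose by 0.69 and 0.53 from low levels of 2.03 to 2.98 CPM in siCont; it was named after its values were seen.

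**Figure D4:**
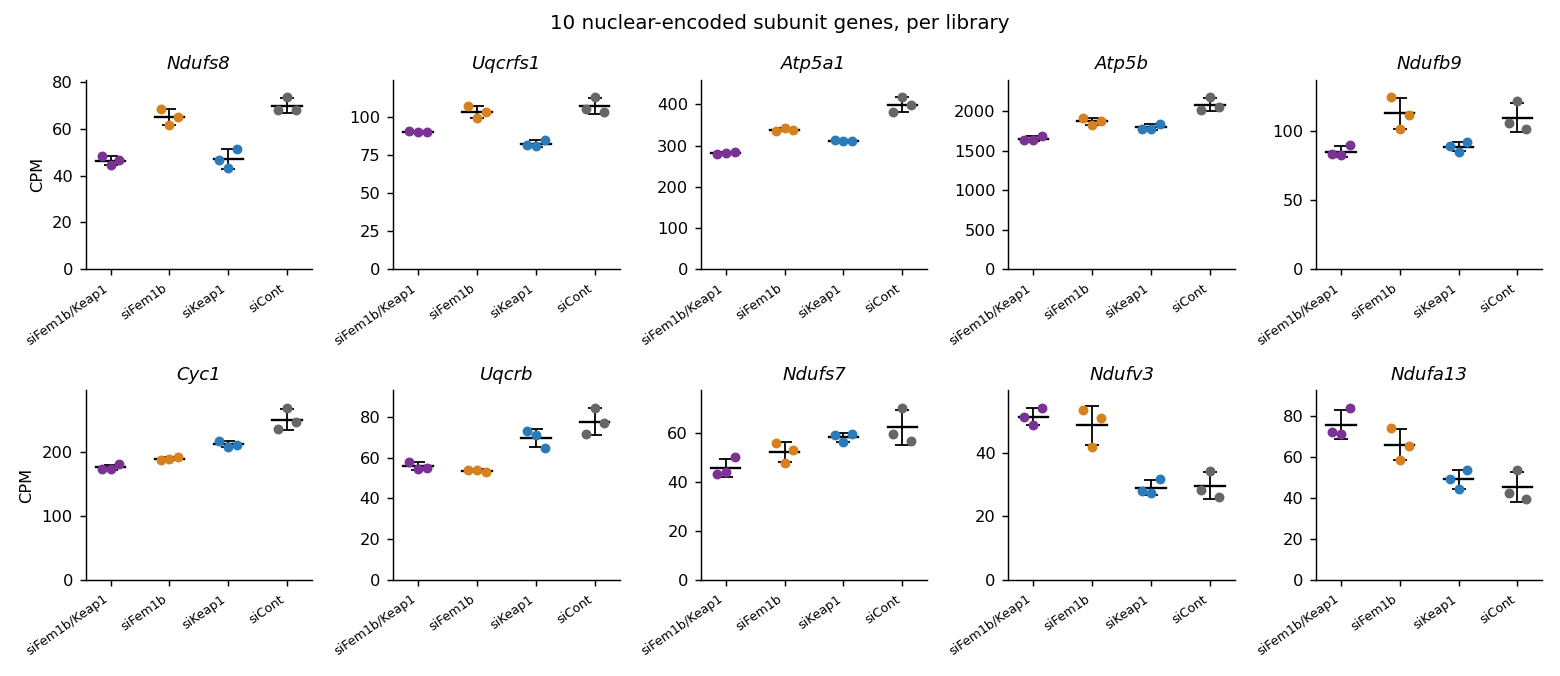
CPM of 10 nuclear subunit genes in each library, with the mean and SD of 3 libraries. Ndufs8 and Ndufb9 are low in siFem1b/Keap1 and siKeap1, Uqcrb in siFem1b/Keap1 and siFem1b, Cyc1 and Atp5a1 in all 3 depleted groups, and Ndufv3 and Ndufa13 are high in siFem1b/Keap1 and siFem1b, against siCont.

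Nuclear members were also counted by transcript length. Among the 13 with a transcript of up to 500 bases, 9 rose and none fell in siFem1b/Keap1, 9 rose and none fell in siFem1b, and 1 fell in siKeap1, with medians of 0.29, 0.19 and -0.03. Over all 293 genes tested of that length the medians were 0.07, 0.07 and 0.01. Of those genes, 32.4%, 26.3% and 13% were higher and 24.6%, 25.9% and 11.3% lower in siFem1b/Keap1, siFem1b and siKeap1. Among the 14 of over 1200 and up to 3000 bases, 1 rose and 9 fell in siFem1b/Keap1, 1 rose and 7 fell in siFem1b, and 8 fell in siKeap1, with medians of -0.20, -0.13 and -0.13, beside 0.01, -0.03 and -0.02 over 5679 genes. Of these 5679 genes, 36.2%, 29.7% and 19.7% were higher and 34.5%, 34.9% and 24.1% lower in the same order of groups. The 48 members between these lengths had medians of 0.06, 0.03 and -0.04. The part of length or of RNA quality in these changes was not tested.

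siFem1b/Keap1 was next set against each single depletion, which asks what each siRNA added to the other. Over siKeap1, 40 members changed (45.5%, with 31 higher and 9 lower), while 63.6% of all genes did. Of these 40, 6 had at least a 1.5-fold change, as 23.8% of all genes did, and the libraries of 52 members did not overlap, as for 69.4% of genes. Of all genes, 32% were higher and 31.6% lower. Of the mtDNA genes 5 rose: mt-Nd6 (log2 0.59, edgeR adjusted p = 5.36e-06), mt-Nd5 (0.49, adjusted p = 4.39e-05), mt-Nd4 (0.40, adjusted p = 0.00011), mt-Co1 (0.40, adjusted p = 0.00132) and mt-Cytb (0.33, adjusted p = 0.00195). Among nuclear members with a mean of at least 5 CPM, the largest rises were those of Ndufv3 (0.82, adjusted p = 3.21e-05) and Ndufa13 (0.62, adjusted p = 0.00153), followed by Cox8a, Ndufa1 and Atp5e at 0.48, 0.44 and 0.43. The largest falls were those of Ndufs7 (-0.35, adjusted p = 0.00146), Uqcrb (-0.32, adjusted p = 7.04e-05) and Cyc1 (-0.27, adjusted p = 1.71e-05). Ndufs8 had -0.02 there (adjusted p = 0.813). Counted with close replicates as 1 library, Atp5b and Ndufs5 lost their calls (adjusted p = 0.0613 and 0.0568). With library totals alone, 46 members were higher and 4 lower.

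Over siFem1b, 17 members changed (19.3%, with 10 higher and 7 lower), while 43.1% of all genes did (21.3% higher and 21.8% lower). Of the members 1 had at least a 1.5-fold change, where 9.36% of genes did, and 22 had libraries that did not overlap, where 50.8% of genes did. The mtDNA genes made up 6 of the rises, led by mt-Nd3 (log2 0.99 ± 0.14 SE, edgeR adjusted p = 0.000378) and mt-Nd2 (0.52, adjusted p = 0.0013). The others were mt-Cytb (0.29, adjusted p = 0.00808), mt-Nd6 (0.25, adjusted p = 0.0112), mt-Nd1 (0.23, adjusted p = 0.0214) and mt-Nd5 (0.20, adjusted p = 0.0413). By these tests mt-Cytb, mt-Nd6 and mt-Nd5 were higher in siFem1b/Keap1 than in either single depletion. Their siFem1b/Keap1 and siFem1b libraries overlapped, and their calls over siFem1b were not recomputed under the alternatives. Among nuclear members Ndufs8 (-0.49, adjusted p = 2.85e-06), Ndufb9 (-0.41, adjusted p = 0.000499), Atp5a1 (-0.27, adjusted p = 9.68e-06), Uqcrfs1 (-0.19, adjusted p = 0.00127) and Atp5b (-0.18, adjusted p = 0.000997) fell further. Atp5e rose by 0.31 (adjusted p = 0.0024). With close replicates counted as 1 library, 10 members passed, and leaving out siFem1b/Keap1 replicate 1 also left 10. With close replicates so counted, mt-Nd1, Ndufa4 and Ndufs4 did not pass (edgeR adjusted p = 0.0656, 0.0571 and 0.0835). Nor did Cox7a2l, Ndufv1 and Cyc1 (adjusted p = 0.0722, 0.0526 and 0.15). With library totals alone, 16 members were higher and 6 lower.

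The interaction, which sets the log2 effect of the Keap1 siRNA beside the Fem1b siRNA against its effect beside the control, passed for 2 of 88 members (2.27%), both higher, where 11.4% of all genes passed (6.11% higher and 5.32% lower). At least a 1.5-fold interaction passed for 0 members and 2.57% of genes. They were Ndufs4, a complex I accessory subunit (0.24 ± 0.075 SE, edgeR adjusted p = 0.0466), and Cox7a2l, known for joining complexes III and IV into larger assemblies (0.21, adjusted p = 0.0376). Ndufs4 was at 54.2, 51.2 and 54.2 CPM in siFem1b/Keap1, 48.5, 48.6 and 48.1 CPM in siFem1b and 47.4, 47.5 and 50.9 CPM in siKeap1 libraries, against 49.9, 57.3 and 49.6 CPM in siCont libraries. Cox7a2l was at 100, 102 and 106 CPM in siFem1b/Keap1, 93.1, 94.6 and 97.3 CPM in siFem1b and 88.6, 84.6 and 88.2 CPM in siKeap1 libraries, against 89.1, 99.2 and 90.7 CPM in siCont libraries. Neither gene passed in the single depletions, and Ndufs4 did not pass in siFem1b/Keap1 over siCont either (log2 0.03, adjusted p = 0.672), where siCont replicate 2 was its highest library. Leaving out 1 library ended the Ndufs4 interaction for 8 of the 12 libraries (adjusted p up to 0.188) and the Cox7a2l interaction for 10 (up to 0.193). Neither interaction passed with DESeq2 size factors, with the first run alone or with close replicates counted as 1 library (adjusted p = 0.142 and 0.102).

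Some complex IV subunits come in paired forms, 1 of which is known from heart and skeletal muscle. The common forms Cox8a, Cox6a1 and Cox7a2 were abundant in all groups (Cox8a at 799, 863 and 526 TPM in siFem1b/Keap1, siFem1b and siKeap1, against 592 TPM in siCont), and the muscle forms were near the limit of counting. Cox8b, the muscle form of subunit 8, had 32, 37 and 33 counts in siFem1b/Keap1 and 47, 33 and 30 counts in siFem1b libraries, against 0, 0 and 0 in siKeap1 and 1, 0 and 1 in siCont libraries. The ratio to siCont was 51.3 in siFem1b/Keap1 (exact 95% interval 13.8 to 429) and 53.1 in siFem1b (14.4 to 444), and against siKeap1 siFem1b/Keap1 was at least 33.5-fold higher, with siKeap1 set to 3 counts over the group. These intervals cover counting error only. Cox7a1, the muscle form of subunit 7a, had 57, 48 and 49 counts in siFem1b/Keap1, 80, 53 and 60 in siFem1b and 27, 15 and 16 in siKeap1 libraries, against 25, 16 and 27 in siCont libraries. Its ratio to siCont was 2.28 (1.70 to 3.08) in siFem1b/Keap1 and 2.74 (2.07 to 3.67) in siFem1b (edgeR adjusted p = 0.00036 and 4.41e-05), and 0.871 (0.602 to 1.25) in siKeap1. Cox8b, unlike Cox7a1, passed the filter only through the groups in which it was higher, so no test is given for it. The 8 markers of differentiating muscle also rose in siFem1b/Keap1 and in siFem1b, and their part in the isoform counts was not tested. Cox6a2, the muscle form of subunit 6a, had 0, 4 and 7 counts in siFem1b/Keap1 and 6, 3 and 4 in siFem1b libraries, 0 in each siKeap1 library and 4 in each siCont library. Its ratio to siCont was 0.922 (0.369 to 2.28) in siFem1b/Keap1 and 1.05 (0.44 to 2.51) in siFem1b, with an upper limit of 0.367 in siKeap1. Cox6b2, the testis form of subunit 6b, had 11, 5 and 8 counts in siFem1b/Keap1, 1, 0 and 4 in siFem1b and 0, 0 and 1 in siKeap1, against 0, 0 and 1 in siCont. Cox8c was at 0 in every library. Cox4i2 and Cox7b2 stayed under 10 counts per group, so no difference could be read at this depth.

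**Figure D5:**
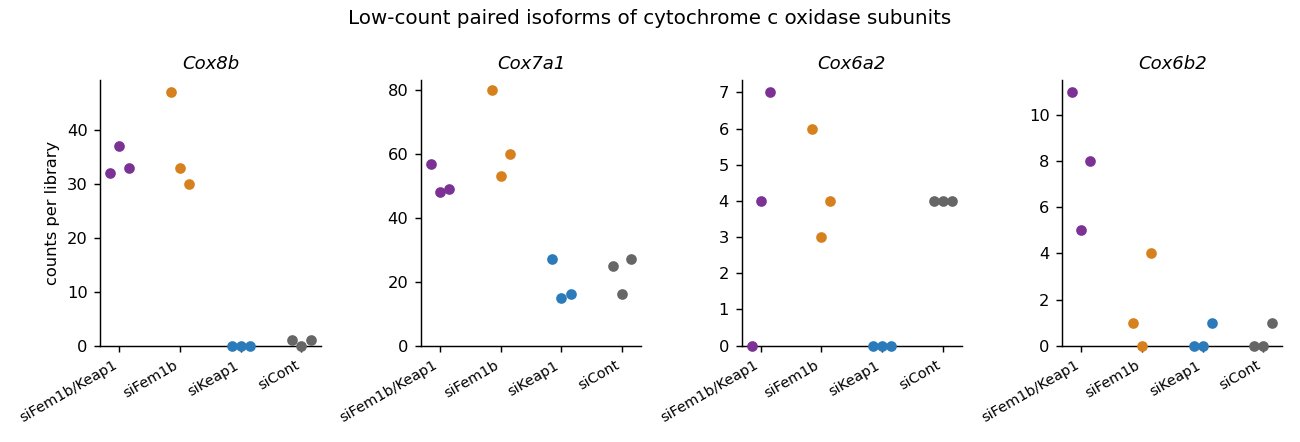
Counts per library of 4 low-abundance complex IV isoforms in the 4 groups; points are libraries. Cox8b is between 30 and 47 in siFem1b/Keap1 and siFem1b libraries and at 0 or 1 in siKeap1 and siCont libraries, and Cox7a1 is between 48 and 80 in siFem1b/Keap1 and siFem1b, against 15 to 27 in siKeap1 and siCont.

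Genes that serve these complexes, listed by role, were counted the same way. Of 20 genes for mtDNA transcription, replication and RNA stability, 14 fell and none rose in siFem1b/Keap1 relative to siCont, 15 fell and 1 rose in siFem1b, and 4 fell and 1 rose in siKeap1, with medians of -0.36, -0.27 and -0.08. Lower genes made up 33.7%, 32.1% and 23.8% of all genes tested in these comparisons. Tfam, which packs mtDNA and starts its transcription, was at 36.2, 33.7 and 33.4 CPM in siFem1b/Keap1, 33.3, 37.5 and 33.6 CPM in siFem1b and 58.1, 58.4 and 55.3 CPM in siKeap1 libraries, against 56.2, 60.0 and 61.2 CPM in siCont libraries. It fell by 0.78 on the log2 scale in siFem1b/Keap1 (edgeR adjusted p = 1.97e-10) and by 0.77 in siFem1b (adjusted p = 4.17e-10). The RNA of this factor was lower in the libraries in which mt-Nd4 and mt-Nd6 counts were higher. In siFem1b the summed mtDNA messages overlapped siCont. Whether these levels are linked was not tested, and protein was not measured here. Slirp, which helps to keep mtDNA messages stable, fell by 0.63 in siFem1b/Keap1 and by 0.72 in siFem1b, and Elac2, which trims mitochondrial tRNA ends, fell by 0.48 and 0.49 in siFem1b/Keap1 and siFem1b. Supv3l1, a helicase of mitochondrial RNA decay, fell by 0.52, 0.29 and 0.28 in siFem1b/Keap1, siFem1b and siKeap1.

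Of 9 tested factors known to drive respiratory genes, 3 rose and 6 fell in siFem1b/Keap1, 3 rose and 5 fell in siFem1b, and 3 fell in siKeap1. Of all genes tested, 33.8% were higher and 33.7% lower in siFem1b/Keap1, 30% and 32.1% in siFem1b, and 18.4% and 23.8% in siKeap1. The factors named below were picked by smallest p, and none of them was among those that rose. Nrf1, whose product NRF-1 binds the letters shown above, was at 33.4, 34.0 and 33.4 CPM in siFem1b/Keap1, 38.5, 39.4 and 38.5 CPM in siFem1b and 44.4, 44.7 and 43.6 CPM in siKeap1 libraries, against 56.0, 55.2 and 55.8 CPM in siCont libraries. No 2 groups overlapped, with log2 changes of -0.73, -0.52 and -0.33 (edgeR adjusted p = 6.45e-12, 1.03e-09 and 1.03e-06). Gabpb1, a subunit of the ETS factor GABP, fell by 0.74, 0.48 and 0.30 in the same order, and Pprc1, a coactivator of these factors, fell by 0.55 in siFem1b/Keap1 and in siFem1b.

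Complex II, succinate dehydrogenase, feeds electrons into the same chain and has no mtDNA subunit. Sdhd, its membrane anchor, was at 47.6, 45.6 and 42.6 CPM in siFem1b/Keap1, 47.0, 55.0 and 49.7 CPM in siFem1b and 87.4, 86.0 and 84.5 CPM in siKeap1 libraries, against 92.8, 105 and 99.0 CPM in siCont libraries. It fell by 1.12 in siFem1b/Keap1 (edgeR adjusted p = 3.88e-12), by 0.97 in siFem1b and by 0.20 in siKeap1. Sdhb, its iron-sulfur subunit, was at 54.3, 53.5 and 56.3 CPM in siFem1b/Keap1, 78.6, 77.5 and 80.7 CPM in siFem1b and 57.7, 56.1 and 56.0 CPM in siKeap1 libraries, against 82.4, 90.2 and 83.5 CPM in siCont libraries. It fell by 0.64 in siFem1b/Keap1 and by 0.59 in siKeap1 (adjusted p = 1.85e-09), and by 0.11 in siFem1b. Sdhd was thus low wherever the Fem1b siRNA was used and Sdhb wherever the Keap1 siRNA was used. Both genes were picked by smallest p, and the other subunits of complex II are not described here.

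Assembly factors were counted against the 67.5%, 62.1% and 42.2% of all genes called in siFem1b/Keap1, siFem1b and siKeap1. Of 14 for complex I, 2 rose and 9 fell in siFem1b/Keap1, 2 rose and 8 fell in siFem1b, and 2 rose and 3 fell in siKeap1, and Ndufaf4 fell by 0.71 and 0.62 in siFem1b/Keap1 and siFem1b. Of 6 for complex III, 2 rose and 1 fell in siFem1b/Keap1, 1 rose and 1 fell in siFem1b, and 1 fell in siKeap1. Of 21 tested for complex IV, 9 rose and 8 fell in siFem1b/Keap1, 3 rose and 10 fell in siFem1b, and 4 rose and 3 fell in siKeap1. Cox14 rose by 0.96 and 0.69 in siFem1b/Keap1 and siFem1b, and Sco2, a copper chaperone of complex IV, rose by 0.52 in siFem1b/Keap1 and by 0.75 in siKeap1. All 3 listed for the ATP synthase fell in siFem1b/Keap1 and in siFem1b. Tmem70, which helps to build its membrane ring, was at 18.4, 19.1 and 18.8 CPM in siFem1b/Keap1, 16.2, 16.6 and 16 CPM in siFem1b and 39.3, 39.4 and 39.4 CPM in siKeap1 libraries, against 30.7, 35.6 and 32.8 CPM in siCont libraries. It fell by 0.81 and 1.02 in siFem1b/Keap1 and siFem1b (edgeR adjusted p = 1.56e-10 and 1.18e-11) and rose by 0.25 in siKeap1 (adjusted p = 0.000548). Of 11 genes of coenzyme Q synthesis, 2 rose and 7 fell in siFem1b/Keap1, 1 rose and 8 fell in siFem1b, and 5 fell in siKeap1. Pdss1, which makes the side chain of coenzyme Q, fell by 0.73, 0.54 and 0.24 in siFem1b/Keap1, siFem1b and siKeap1, while Coq8a rose by 0.76 in siFem1b/Keap1 and 1.95 in siFem1b and fell by 1.07 in siKeap1. Cycs, cytochrome c, fell by 0.35 in siFem1b/Keap1 (adjusted p = 0.0498). Of 3 tested subunits whose symbols fall outside the rule, Ndufab1 fell by 0.24 in siFem1b/Keap1 and no other passed.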

How the data were processed

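Poly(A)-selected RNA of 12 libraries, each sequenced in 2 runs, was analysed. The submitters' processing notes name kallisto 0.44.0 and build mm10. The authors' deposited tables give, per transcript, expected counts (estimated, with shared reads split between transcripts) and TPM; annotation, trimming and strandedness are not given in the sources used here. Of 118489 transcripts, 116728 (98.5%) matched GENCODE M21 (GRCm38); the rest, 0.606% to 0.64% of counts, were left out. Expected counts were summed per gene and over both runs and rounded. The second run was closest to its own first run in 11 of 12 libraries. The replicate pairs close to repeat runs are named in the report.

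Genes were filtered with filterByExpr (14577 left) and scaled by TMM. edgeR 4.0.16 (R 4.3.3, limma 3.58.1) fitted 1 term per group to all 12 libraries, with robust quasi-likelihood tests, 2-sided, adjusted by Benjamini and Hochberg's method over all genes tested at 0.05; the common biological coefficient of variation was 0.0503. CPM divide counts by the TMM-adjusted library size, and TPM were used only for levels between genes and in 1 alternative for the ratio of sums. Ratios of low counts have exact Clopper-Pearson intervals, which cover counting error only. Near-identical pseudogenes (at least 90% identity over 50% of the member, or over 80% of a partial copy) were found with BLAST+ 2.17.0.

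Members, gene lists and tests were chosen with earlier results of these data known. Genes named were, per comparison, up to 8 largest rises and 8 largest falls with a mean of at least 5 CPM and no overlap of the 2 groups, all mtDNA genes against siCont, paired isoforms and core subunits, and up to 3 genes of each other list with the smallest p. Alternatives were DESeq2 size factors, library totals, TMM without the members and mtDNA genes, the DESeq2 1.42.0 Wald test, limma-voom, other filters and thresholds, single runs, a replicate block, the compared groups only, summed copies, and each library left out. The test was run on simulated data. Partial copies and the counting of close replicates as 1 library were added after the data were seen. Promoter motifs were shortened to their present letters after a search with longer forms of the NRF-1 and antioxidant motifs, which gave fewer matches, had been seen.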

Additional observations from a re-analysis of the deposited data

Results flagged for a closer look

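Ndufs4 and Cox7a2l were flagged because the effect of the Keap1 siRNA differed between cells with and without the Fem1b siRNA, by a test of that difference. For Ndufs4 the effect was larger by 0.2375 on the log2 scale with the Fem1b siRNA than without it (edgeR adjusted p = 0.0466). For Cox7a2l it was larger by 0.2069 (edgeR adjusted p = 0.0376). Both are fragile: the call was lost without any 1 of 8 libraries for Ndufs4 (adjusted p up to 0.188) and of 10 libraries for Cox7a2l (up to 0.193). In siFem1b/Keap1 over siFem1b both genes were higher, by 0.14 and 0.11, while in siKeap1 over siCont they had -0.10 and -0.09. siCont replicate 2 was the highest siCont library for both, at 57.3 CPM for Ndufs4 and 99.2 CPM for Cox7a2l.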

How the results depend on the processing

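Among single-gene results, 1331 of those recomputed under an alternative other than leaving out a library kept direction and side of the threshold, 55 lost the threshold, 47 gained it and 21 changed sign. With a library left out these numbers were 1134, 77, 19 and 18. The called members numbered 7 in siFem1b/Keap1, 3 in siFem1b and 1 in siKeap1 against siCont, and 6 over siKeap1, 1 over siFem1b and 0 for the interaction, with at least a 1.5-fold change. At an adjusted p under 0.01 they numbered 17 in siFem1b, 11 in siKeap1, 9 in siFem1b/Keap1 over siFem1b and 0 for the interaction. Without a filter on low counts siKeap1 had 30, siFem1b/Keap1 over siFem1b 26 and the interaction 12. With the first run alone siKeap1 had 11 and the interaction 0, and with the second run alone the interaction had 1. The interaction had 0 with DESeq2 size factors and 4 with the DESeq2 Wald test. With close replicates counted as 1 library, siFem1b/Keap1 over siFem1b had 10 and the interaction 0, and the other comparisons 42, 29, 14 and 31. Leaving out 1 library gave 39 to 58 members in siFem1b/Keap1, 24 to 42 in siFem1b, 13 to 24 in siKeap1, 32 to 46 in siFem1b/Keap1 over siKeap1, 10 to 22 over siFem1b and 0 to 6 for the interaction; without siCont replicate 1 siFem1b had 24 and without siFem1b replicate 3 siKeap1 had 13. The difference in log2 ratio of sums ranged from 0.313 to 0.507, from 0.0655 to 0.252 and from 0.0338 to 0.196. The replicate numbers did not pair the libraries: same-number correlations ran from -0.078 to 0.117, 1 of 18 was over 0.1, and 2 of 12 libraries matched their own number best. With the number as a block the members called were 42, 30 and 15 against siCont, 38 and 13 for siFem1b/Keap1 over siKeap1 and siFem1b, and 0 for the interaction (Ndufs4 at 0.2377, Cox7a2l at 0.2066). Changes of sign concerned mtDNA genes that did not pass the test, chiefly in siFem1b against siCont. There mt-Co3 was at 0.009222 with DESeq2 size factors, 0.09816 with library totals, 0.009452 with the Wald test, 0.05387 with at least 5 CPM, 0.2623 with the first run, 0.3116 and 0.3117 with copies, and 0.01287 with the compared groups only. mt-Nd2 was at 0.08717 with library totals, 0.04441 with at least 5 CPM, 0.01606 and 0.004791 with the first and second runs, and 0.003242 with the compared groups. mt-Nd1 was at 0.04205 and mt-Nd3 at 0.01677 with library totals. With copies mt-Nd3 was at 0.001426 and 0.001487 and mt-Co2 at 0.2144 and 0.2145. In siKeap1 mt-Co3 was at 0.06128 with the first run, and in siFem1b/Keap1 mt-Co2 was at -0.022 with close replicates counted as 1 library. With a library left out, mt-Co2 in siFem1b/Keap1 ran from -0.1002 to 0.146. In siFem1b mt-Nd1 ran from -0.1039 to 0.006106, mt-Nd2 from -0.07608 to 0.06652, mt-Nd3 from -0.1822 to 0.07755, mt-Nd4l from -0.1024 to 0.316, mt-Atp8 from -0.2282 to 0.621 and mt-Co3 from -0.2592 to 0.2127. In siKeap1 mt-Atp8 ran from -0.09792 to 0.4781 and mt-Co3 from -0.2009 to 0.002894. The cause was not tested. Counting error limits the members with few counts, Cox8b, Cox7a1, Atp5s and the untested isoforms.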
